A study of Mus musculus with 12 samples.

Results

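The sites described here are the peaks of the transcription factor MYC in RAW264.7 cells given RANKL, set against those of cells given RANKL together with the BET inhibitor I-BET. The deposited list of RANKL-treated cells holds 299 MYC peaks and that of cells given both compounds holds 11, out of 63578 peaks in the 8 lists of the series. A RANKL peak was called remaining if it shared at least 1 bp with a peak of the second list, and lost if it shared none. By this rule 290 of the 299 peaks were lost (97%) and 9 remained. RAW264.7 is an established mouse macrophage-like line, and the cytokine RANKL drives it towards the osteoclast, the bone-resorbing cell. The series used ChIP-seq, in which DNA bound by a protein is precipitated and sequenced, for MYC and its partner MAX in untreated cells and in cells kept for 4 h with RANKL (50 ng/ml), with I-BET (500 nM), or with RANKL (50 ng/ml) plus I-BET (500 nM). The labels name no genetic change, call the cells a monocyte-derived line and give bone marrow as the source. They list 1 library per antibody and treatment, although the treatment protocol speaks of replicates, so no difference between treatments has a replicate check and none was tested.

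MYC belongs to the basic helix-loop-helix leucine zipper proteins and binds DNA as a pair with MAX. The pair prefers the E-box, whose best-known form is CACGTG. MAX also pairs with MXD proteins, MNT and MGA, which bind the same DNA, so a MAX peak need not hold MYC. Genes for ribosome building, translation, nucleotide synthesis and mitochondrial function are well-known targets of MYC. BET proteins such as BRD2 bind acetylated histones through their bromodomains and help RNA polymerase II to elongate, and I-BET compounds block that binding.

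Promoter sequences were set beside the peaks to show the DNA of each outcome. The 3 remaining places whose RANKL plus I-BET peak reached a promoter window are Nop58, Gtf2ird2 and Snhg15. Prcc, G6pc3 and Polr3e stand for high-ranked MYC peaks that were lost while a MAX peak was listed in both treatments. Prcc has the highest rank among such peaks with a start inside. G6pc3 and Polr3e are the 2 highest-ranked of them whose printed promoter holds CACGTG, and were chosen for it. Rpl7a lost its MYC and its MAX peak, and Nudt13 had a MYC peak without any MAX peak. Each sequence is the gene's strand from RefSeq (GRCm38.p6, the patch release of mm10), 250 bases before to 30 bases after the annotated start. Capitals mark the E-box CACGTG, the related CACGCG on either strand, and 2 further motifs that were searched after the sequences had been seen: TCTCGCGA, and ACTACA followed after 2 bases by TCCC, on either strand.
Nop58 (remaining, chr1:59684756-59685035, plus strand): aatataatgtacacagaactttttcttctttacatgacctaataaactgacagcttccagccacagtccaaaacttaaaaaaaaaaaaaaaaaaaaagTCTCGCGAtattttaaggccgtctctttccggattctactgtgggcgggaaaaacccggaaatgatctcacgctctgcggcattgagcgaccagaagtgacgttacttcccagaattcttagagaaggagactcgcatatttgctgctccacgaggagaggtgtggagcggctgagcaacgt
Gtf2ird2 (remaining, chr5:134183788-134184067, plus strand): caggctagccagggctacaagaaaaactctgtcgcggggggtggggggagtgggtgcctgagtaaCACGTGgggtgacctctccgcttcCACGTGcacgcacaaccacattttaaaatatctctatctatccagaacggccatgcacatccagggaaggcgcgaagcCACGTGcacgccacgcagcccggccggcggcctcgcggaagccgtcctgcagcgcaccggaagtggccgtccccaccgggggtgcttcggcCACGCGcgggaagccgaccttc
Snhg15 (remaining, chr11:6528731-6529010, minus strand): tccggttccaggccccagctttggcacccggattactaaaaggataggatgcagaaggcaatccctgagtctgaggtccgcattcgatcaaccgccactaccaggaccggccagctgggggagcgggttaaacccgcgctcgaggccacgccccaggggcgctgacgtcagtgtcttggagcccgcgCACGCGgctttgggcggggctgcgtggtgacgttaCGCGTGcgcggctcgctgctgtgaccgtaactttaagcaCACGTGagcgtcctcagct
Prcc (lost, MAX in both, chr3:87885533-87885812, minus strand): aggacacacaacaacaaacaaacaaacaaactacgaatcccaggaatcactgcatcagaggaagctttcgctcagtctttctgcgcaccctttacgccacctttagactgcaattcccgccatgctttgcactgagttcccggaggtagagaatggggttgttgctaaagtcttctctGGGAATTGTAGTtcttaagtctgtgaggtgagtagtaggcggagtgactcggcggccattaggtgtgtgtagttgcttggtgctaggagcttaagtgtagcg
G6pc3 (lost, MAX in both, chr11:102189449-102189728, plus strand): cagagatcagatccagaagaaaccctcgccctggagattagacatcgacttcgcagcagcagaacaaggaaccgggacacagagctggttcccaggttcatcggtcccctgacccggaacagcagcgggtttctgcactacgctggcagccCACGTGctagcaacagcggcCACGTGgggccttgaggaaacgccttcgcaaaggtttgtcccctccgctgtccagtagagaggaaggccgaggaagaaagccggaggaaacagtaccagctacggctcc
Polr3e (lost, MAX in both, chr7:120917528-120917807, plus strand): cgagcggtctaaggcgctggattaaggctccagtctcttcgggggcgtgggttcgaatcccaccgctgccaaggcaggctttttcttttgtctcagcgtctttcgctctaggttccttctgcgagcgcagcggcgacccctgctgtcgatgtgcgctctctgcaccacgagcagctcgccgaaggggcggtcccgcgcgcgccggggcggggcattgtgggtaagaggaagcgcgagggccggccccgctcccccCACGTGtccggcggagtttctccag
Rpl7a (lost, MAX with RANKL only, chr2:26910557-26910836, plus strand): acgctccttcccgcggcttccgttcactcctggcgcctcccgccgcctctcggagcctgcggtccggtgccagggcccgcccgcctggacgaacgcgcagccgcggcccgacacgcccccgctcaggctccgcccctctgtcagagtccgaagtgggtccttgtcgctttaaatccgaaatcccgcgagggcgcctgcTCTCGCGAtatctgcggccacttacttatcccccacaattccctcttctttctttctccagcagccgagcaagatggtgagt
Nudt13 (lost, no MAX peak, chr14:20294440-20294719, plus strand): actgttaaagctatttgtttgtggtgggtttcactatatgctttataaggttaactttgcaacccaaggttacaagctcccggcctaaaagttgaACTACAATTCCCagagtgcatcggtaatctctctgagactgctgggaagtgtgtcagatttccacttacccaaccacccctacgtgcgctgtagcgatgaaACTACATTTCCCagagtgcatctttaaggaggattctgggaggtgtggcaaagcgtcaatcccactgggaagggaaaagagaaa
Gtf2ird2 carries CACGTG 3 times, with its first base at -185, -161 and -83 from the start, which is counted as 0. G6pc3 carries it at -99 and -79, Snhg15 at 11 and Polr3e at 5. The windows of Nop58, Prcc, Rpl7a and Nudt13 hold no CACGTG. Since G6pc3 and Polr3e were chosen for carrying it, the promoters shown do not tell how frequent the E-box is in the lost group. A match to these letters is a description of the DNA and not a bound site.

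The peak lists give a position and the authors' own score per peak, and no read depth. Ranks below order a list by this score, with 1 the highest. Every listed peak joins peaks of 3 call sets, numbered 3, 5 and 7. What distinguishes the sets is not stated in the labels. Call numbers in these sets went up to 554 to 889 for MYC with RANKL and 21 to 23 with both compounds, so the difference in length is already present in each set. The MYC and MAX lists carry different tags, and whether they were called alike is not stated, so numbers of peaks were compared within an antibody. A peak that is not listed is not shown to be absent, since depth is unknown. Cell identity cannot be read from binding sites alone. MAX peaks with RANKL were listed at 25 of 40 macrophage genes, against 1 of 19 lymphocyte markers, 1 of 20 fibroblast and osteoblast markers and 1 of 20 neuronal genes. Over all protein-coding genes the share was 34.5%. Ribosome biogenesis genes had MAX at 56 of 60, so a high share is not particular to macrophage genes.

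The 9 remaining peaks are at the nucleolar protein genes Ncl and Nop58, the snoRNA host genes Snhg15 and Snhg17, the mitochondrial ribosomal protein gene Mrpl23, and at Gtf2ird2, Angptl6, Pemt and the non-coding gene Gm31068. They make up 3.01% of the RANKL list (exact Clopper-Pearson 95% interval 1.39 to 5.64, which covers counting error only). Most of them stood high in the RANKL list. Their median rank was 21 and their median score 199 (107 to 375), against a median rank of 154.5 and a median score of 105.5 (60 to 326) for the 290 lost peaks. Of the 10 top-ranked RANKL peaks 4 remained, of ranks 11 to 30 there were 2 of 20, of ranks 31 to 50 there was 1 of 20 and of ranks 51 to 100 there was 1 of 50. Below rank 100 only Mrpl23 remained, at rank 151. Rank alone did not separate the groups, since 6 of the top 10 were lost. The remaining peaks were 359 to 522 bp wide (median 440), within the range of the lost ones (167 to 5865, median 305).

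**Figure D1:**
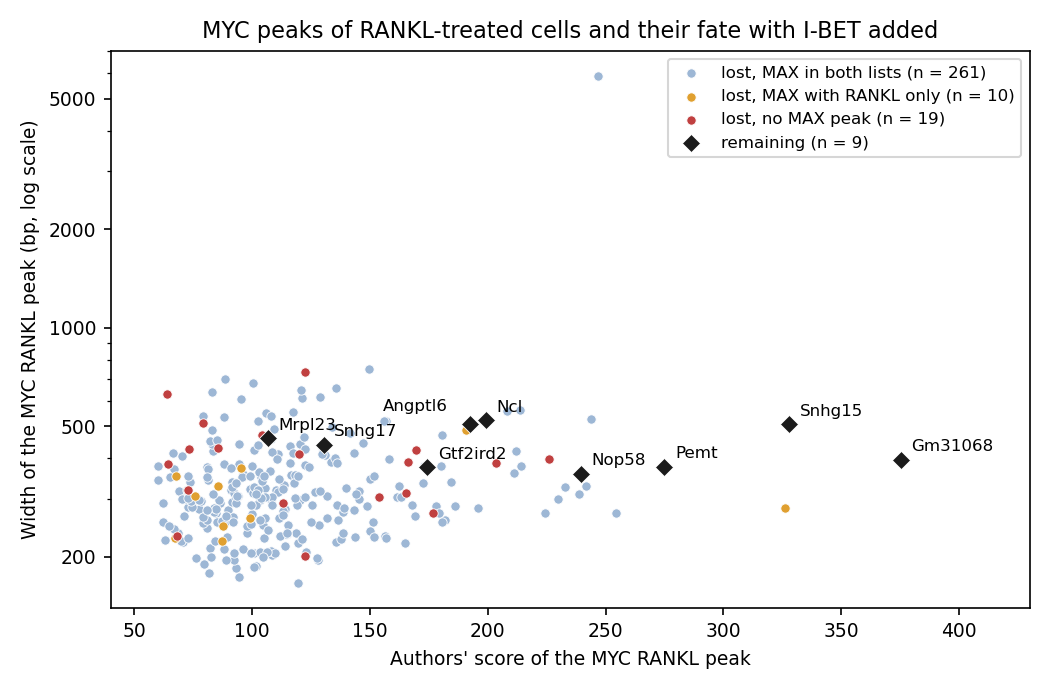
Each point is 1 of the 299 MYC peaks of RANKL-treated cells, with the authors' score on the x axis and the peak width (bp, log scale) on the y axis. Diamonds with gene names are the 9 remaining peaks, and colours give the MAX peaks at the 290 lost ones (261 with MAX in both treatments, 10 with MAX in RANKL alone, 19 without). Remaining peaks reach from a score of 107 to the highest of the list, 375, and the highest-scoring lost peak has 326.

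Ncl and Nop58 are the remaining peaks at ribosome biogenesis genes. Nucleolin, the product of Ncl, is an abundant nucleolar protein of rRNA transcription and processing. Its RANKL peak (chr1:86358491-86359012) lay inside the gene, 443 bp from the nearest annotated start, with a score of 199 and rank 21. With both compounds the peak there was 138 bp wide, with a score of 104 and rank 6 of 11. Ncl stood at rank 3 of 312 in untreated cells and was also listed with I-BET alone, so it is one of 4 remaining places with a MYC peak in all 4 treatments. NOP58 is a core protein of the box C/D snoRNPs, which guide methylation of rRNA. Its RANKL peak (chr1:59684860-59685218) covered the start and had a score of 239.7 and rank 9, while the 107 bp peak with both compounds had a score of 91 and rank 7. Nop58 was at rank 34 in untreated cells and was not listed with I-BET alone.

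Snhg15 and Snhg17 are long non-coding RNA genes that carry snoRNAs in their introns. The Snhg15 peak (chr11:6528436-6528942) covered the start and held rank 2 in the RANKL list with a score of 328, and was at rank 16 in untreated cells. With both compounds it was 103 bp wide, ranked 3 and had a score of 133. The Snhg17 peak (chr2:158361215-158361654) also covered the start, with a score of 130.3 and rank 83, and its counterpart was 101 bp wide with a score of 78 and rank 10. Both of these RANKL peaks, like that of Ncl, overlapped a MYC peak in each of the other 3 treatments. At Snhg17 the 101 bp peak with both compounds did not itself overlap the one with I-BET alone. Together with Ncl and Nop58, 4 of the 9 remaining peaks lay in or within 1 kb of a gene that contains an annotated snoRNA (44.4%, 13.7 to 78.8). Among the lost peaks it was 26 of 290 (8.97%, 5.94 to 12.9), and among all MAX peaks of RANKL-treated cells 2.92%. The snoRNAs of Ncl include Snora75 and Snord82, and those of Nop58 include Snord11 and Snord70.

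The other remaining places lay at genes of different functions. Gm31068 (chr5:142367509-142367904) held rank 1 in the RANKL list with a score of 375 and rank 1 in untreated cells, and was the only one of the 9 places whose peak kept most of its width with both compounds (355 of 396 bp, rank 8, score 90). Pemt encodes an enzyme that methylates phosphatidylethanolamine. Its peak (chr11:60046318-60046694, rank 4 with a score of 275, and rank 4 without treatment) covered the 5′ boundary of the annotated gene and became the top-ranked peak with both compounds, 70 bp wide with a score of 150.3. The Gtf2ird2 peak (chr5:134183806-134184181, rank 34, score 174) lay over the window with 3 E-boxes shown above. With both compounds it was 161 bp wide and last of the 11, with a score of 75. Angptl6 encodes a secreted angiopoietin-like protein. Its peak (chr9:20878061-20878569) had rank 23 with a score of 193, and with both compounds rank 9 with a score of 78.7. The Mrpl23 peak (chr7:142533137-142533597) was the single remaining one not listed in untreated cells, at rank 151 with a score of 107, and had rank 5 with a score of 109.7 with both compounds.

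The list of cells given both compounds contains 2 peaks without a RANKL counterpart, at Noc2l and Kdm6b, so 9 of its 11 peaks matched (81.8%, 48.2 to 97.7). NOC2L is a nucleolar protein that inhibits histone acetyltransferases. Its peak (chr4:156236794-156236956, rank 2, score 136) lay 534 bp from a RANKL peak of the same gene (rank 194, score 95.7), which was lost by the overlap rule. In untreated cells Noc2l had a MYC peak at rank 38 that overlapped the place of the RANKL plus I-BET peak. At Noc2l the listed position thus shifted within 1 gene, and the same MAX peak of 1379 bp covered both places with RANKL. KDM6B is a demethylase of lysine 27 of histone H3. Its peak inside the gene (chr11:69409479-69409550, rank 4, score 125) was 72 bp wide and was in none of the other 3 MYC lists. The nearest MYC peak with RANKL was 261762 bp away.

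The 11 peaks were narrow. Their median width was 138 bp (70 to 355), and each of the 9 with a RANKL counterpart spanned 18.6 to 89.6% of its width. MAX peaks covered these 11 places in all 4 treatments. With RANKL these MAX peaks ranked 14 to 659 among 10889, and with both compounds 3 to 395 among 6307. With RANKL the highest were at Gm31068 (14), Pemt (40) and Gtf2ird2 (77), and with both compounds at Gm31068 (3), Ncl (17) and Pemt (36). Ranks in lists of unequal length show no change by themselves.

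**Figure D2:**
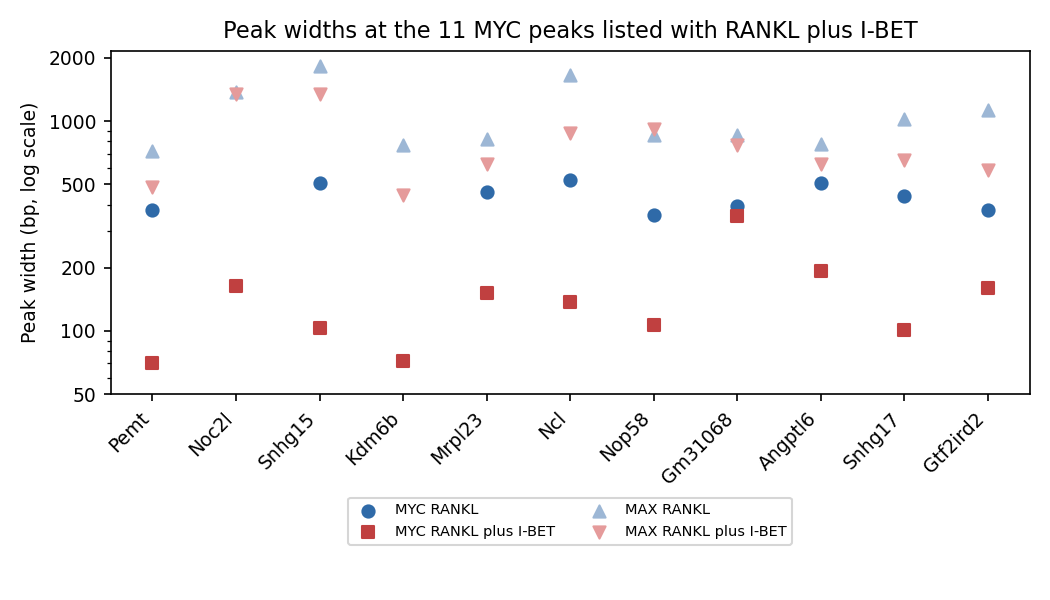
Peak widths in bp (log scale) at the 11 MYC peaks listed with RANKL plus I-BET, ordered by their rank in that list. Circles and squares are MYC peaks with RANKL and with both compounds, and triangles are MAX peaks; Noc2l and Kdm6b have no circle because no RANKL MYC peak overlapped them. The squares lie between 70 and 355 bp, and the MAX peaks between 447 and 1839 bp.

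The lost peaks include most of the top of the RANKL list. Rank 3 was near Gm52481 on chromosome Y, and rank 6 spanned 5865 bp over the ribosomal RNA gene Rn18s-rs5. Ribosomal RNA genes are a repeated array, and input was not analysed here to check the signal there. Rank 5 was at Cnbp (a nucleic acid binding zinc finger protein, score 254), rank 7 at Prcc (linked to splicing, 244) and rank 10 at Nol8 with Cenpp (nucleolar and centromere proteins, 239). Rank 11 was at Cox5a (a subunit of cytochrome c oxidase, 233), rank 12 at Pik3r2 and rank 14 at Pprc1 (a PGC-1-related coactivator of mitochondrial genes, 224). Below these came Mtg1 (a GTPase of mitochondrial ribosome assembly, 214), Ctps (CTP synthase, 214), Rpl32 (212), Uspl1 (211) and Pcbp1 (an RNA-binding protein, 208). G6pc3 (a glucose-6-phosphatase) was at rank 22 and Polr3e (a subunit of RNA polymerase III) at rank 25. Each of the peaks named here from Cnbp to Polr3e had a MAX peak in both treatments. Lost peaks of like rank without this are described below. Zc3h7a (rank 13) and Cmss1 with Filip1l (rank 20) had MAX in neither, and Gm36876 (rank 24) had it with RANKL alone.

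Lost peaks lay mostly at promoters. An annotated start was inside the peak or within 1 kb in 173 of 285 lost peaks on chromosomes with starts in the table used (60.7%, 54.8 to 66.4), and in 6 of the 9 remaining ones. Peak centres were spread evenly about the start, with 84 upstream and 84 downstream among those within 1 kb. In all, 240 of 290 lost peaks (82.8%) lay in a protein-coding gene or within 1 kb of it, 187 of them with 1 such gene and 53 with more. A further 23 had a gene of another kind and 27 had no gene. Tex14 held 3 lost peaks, which lay within 1 kb of the U3 RNA copies Rnu3b1, Rnu3b3 and Rnu3b4, and Eif4a1, Peak1 and Pik3r2 were the other genes with more than 1.

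Lost peaks were divided nearly evenly by whether untreated cells had them. A MYC peak was listed without any treatment at 139 of the 290 places (47.9%, 42.1 to 53.8), and these had a median score of 120.3 in the RANKL list, against 96.3 for the other 151. Of the remaining peaks 8 of 9 had an untreated counterpart. With I-BET alone, 21 of the 290 lost places had a MYC peak (7.24%, 4.54 to 10.9) and 4 of the 9 remaining ones (44.4%, 13.7 to 78.8). Hspd1 with Hspe1 (mitochondrial chaperonins), Mtg1, G6pc3, Ppia, Rpl10a and Ears2 with Ubfd1 are among these 21, and have a MYC peak with I-BET alone and none with RANKL plus I-BET. The length of a list limits such counts, and the list of I-BET alone holds 136 peaks. Its peaks were also narrower, with a median width of 72.5 bp against 307 bp with RANKL and 105 peaks under 100 bp. What the widths add to these shares was not tested.

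**Figure D3:**
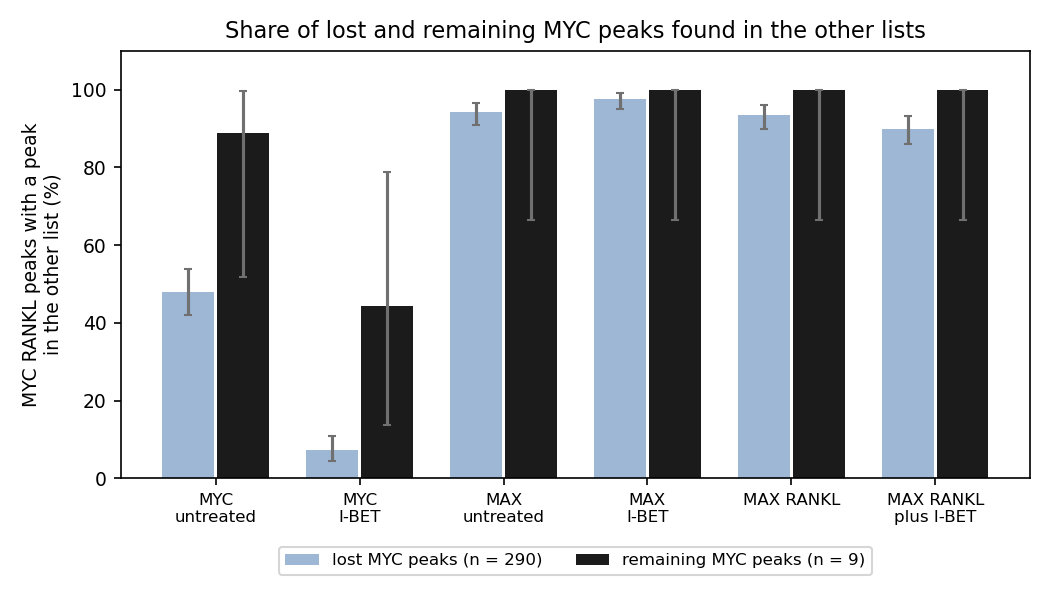
Share (%) of the 290 lost and the 9 remaining MYC peaks that overlapped a peak in each of 6 other lists. Bars start at 0 and error bars are exact 95% binomial intervals for counting error. MAX was listed at 90.0 to 97.6% of lost places in each treatment, while MYC was listed at 47.9% of them in untreated cells and at 7.24% with I-BET alone.

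MAX peaks covered most places where the MYC peak was lost. With RANKL, 271 of the 290 lost peaks overlapped a MAX peak (93.4%, 90.0 to 96.0), and with RANKL plus I-BET 261 did (90.0%, 86.0 to 93.2). At 261 places MAX was listed in both treatments, at 10 with RANKL alone and at 19 in neither, and at 0 places with both compounds alone. MAX was thus listed again at 261 of the 271 lost places that had it (96.3%, 93.3 to 98.2). At 258 places MAX was listed in all 4 treatments. The MAX list itself was shorter with both compounds, since 48.8% of all MAX peaks of RANKL-treated cells were not listed again and 51.2% were.

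MAX peaks at lost MYC peaks ranked high, so they were set beside other MAX peaks of like rank. Their median rank was 487 of 10889, against 208 at remaining MYC peaks and 5580 for MAX peaks without a MYC peak. Of the 271 MAX peaks at a lost MYC peak 263 were listed again (97.0%, 94.3 to 98.7), against 5307 of 10609 without MYC (50.0%, 49.1 to 51.0). Weighting the MAX peaks without MYC to the same rank bins gave 93.3%, which lies just below that interval. In ranks 1 to 500 it was 139 of 139 against 352 of 353, and in ranks 501 to 1000 it was 61 of 61 against 433 of 438, so the top bins leave nearly no room for a difference. In ranks 1001 to 2000 it was 35 of 35 (90.0 to 100) against 90.9% (88.9 to 92.6), and in ranks 2001 to 4000 it was 21 of 24 (87.5%, 67.6 to 97.3) against 71.9% (69.9 to 73.9). In both of these bins the interval for the lost places includes the share without MYC.

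**Figure D4:**
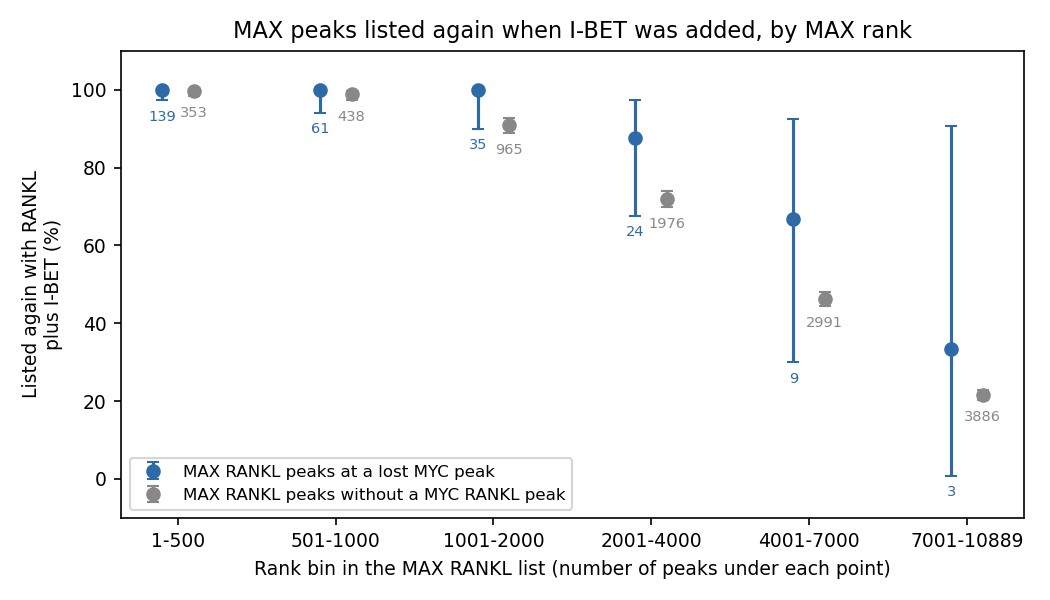
Share (%) of MAX peaks of RANKL-treated cells that were listed again with RANKL plus I-BET, by rank bin of the authors' score on the x axis. Blue points are MAX peaks at a lost MYC peak and grey points those without a MYC peak; bars are exact 95% binomial intervals for counting error and numbers are peaks per bin. Both fall with rank, from 139 of 139 and 352 of 353 in ranks 1 to 500 to 1 of 3 and 21.6% in ranks 7001 to 10889.

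Several lost MYC peaks lay under some of the highest MAX peaks of both lists. The MAX peak at Nsun2 (an RNA methyltransferase) and Srd5a1 had rank 4 with RANKL and rank 6 with both compounds, over a lost MYC peak of rank 132. At Pprc1 the MAX ranks were 51 and 49, at G6pc3 54 and 54, and at Pcbp1 47 and 60. Rank 58 with RANKL and rank 10 with both compounds were held by Supv3l1, a mitochondrial RNA helicase, over a lost MYC peak of rank 232. Riok2, a kinase of small ribosomal subunit maturation, had MAX ranks 38 and 103, and Ran, the nuclear transport GTPase, 71 and 289. The position of MYC in its own list and of MAX in its list therefore differed widely at single genes. Prcc shows the reverse, with a MYC peak of rank 7 over a MAX peak of rank 5824 with RANKL and 2817 with both compounds.

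The 10 lost peaks with MAX in RANKL alone had low MAX ranks, with a median of 3907.5 against 443 where MAX was listed in both. Among them were the peaks at Snrpe (a core spliceosome protein, MAX rank 2705), Rpl7a with Med22 (ribosomal protein and Mediator subunit, 4546), Cirbp with Fam174c (cold-inducible RNA-binding protein, 3533), Wbp2 (4282) and Pdgfb (a growth factor, 3505). Gm36876 and Gm52481 had MAX ranks 10131 and 9153, and 2 of the 10 had no gene. In the MYC list these 2 gene models stood at ranks 24 and 3 and the other 8 peaks at 187 to 287. Those 8 were not listed as MYC peaks in untreated cells.

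The 19 lost peaks without MAX form a group of their own by position. A start lay inside or within 1 kb for 1 of them, Nudt13, against 167 of 256 (65.2%) of those with MAX in both treatments, and 11 of the 19 had no gene. Their median distance to a start was 38074 bp. Some had high MYC ranks, namely Zc3h7a (13), Cmss1 with Filip1l (20), Peak1 (37), Cdk8 (40, kinase of the Mediator complex), Nudt13 (41) and Mid1-ps1 on chromosome Y (51). At Zc3h7a, Filip1l, Peak1, Cdk8 and Mid1-ps1 a MYC peak was also listed in untreated cells and with I-BET alone, and MAX peaks in the same 2 treatments. In all, 12 of the 19 had a MAX peak with I-BET alone, where the MAX list is the longest of the 4 (36785 peaks, against 8839 without treatment and 10889 with RANKL). Of the 12, 8 were among the 21 lost peaks that had a MYC peak with I-BET. Neighbouring pairs of these peaks lay on chromosome 2 near 98662262 and 98666695, on chromosome 9 at 3000138 and 3001165, and on chromosome 14 at 19415715 and 19419195. No repeat annotation was used here, and the part of repeats in these peaks was not tested. Nudt13, with a Nudix hydrolase family product, had no MAX peak in any treatment and a MYC peak in untreated cells and with RANKL.

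Counted by genes, 295 of 21887 protein-coding genes had a MYC peak with RANKL in the gene body or within 1 kb of it (1.35%) and 8 with RANKL plus I-BET (0.0366%). A lost peak was at 289 genes (1.32%), and Noc2l alone had a lost peak and a peak with both compounds. Of these 289 genes 288 had a MAX peak with RANKL and 281 with both compounds (97.2%). For all genes with MAX in RANKL-treated cells, 4833 of 7548 kept a MAX peak (64.0%). The whole table had a MAX peak at 34.5% of genes with RANKL and 23.5% with both compounds. A large gene can carry a MAX peak away from its MYC peak, so the gene count is wider than the count by place.

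Ribosome biogenesis genes had 16 of 60 with a MYC peak under RANKL and 3 with both compounds, against 1.35% and 0.0366% of all genes. A lost peak was at 14 of them. These were the helicases Ddx18 (rank 250) and Ddx21 (209), the H/ACA snoRNP protein Gar1 (253), the nucleolar GTPase Gnl3 (115), the RNA acetyltransferase Nat10 (178), Nol8 (10), Nolc1 (158), Nop14 (268), the box C/D protein Nop56 (153), nucleophosmin Npm1 (84), Ppan (143), Rrp1b (204), Wdr43 (255) and Noc2l (194). All 14 had a MAX peak with both compounds. MAX was listed at 56 of the 60 genes with RANKL and at 53 with both compounds. Box C/D partners thus differed, with Nop58 on the list of both compounds and Nop56 lost, although Nop56 had the wider RANKL peak (549 bp, score 105.8) and Nop58 the higher score.

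MYC peaks were listed at 12 of 78 cytosolic ribosomal protein genes with RANKL and at 0 with both compounds. Of all RANKL MYC peaks 97% were lost, and 0.0366% of all protein-coding genes had a MYC peak with both compounds. A count of 0 here and in the lists that follow is therefore no result about their members. Among them were Rpl32 (rank 17), Rpl10a (57), Rpl5 (59), Rps15a (80) and Rpl13a (163). Further ones were Rpl12, Rps3a1, Rps19, Rpl23 and Rpl7a. A MAX peak was listed with both compounds at 11 of the 12, Rpl7a being the exception, while over the list MAX was at 74 of 78 with RANKL and 58 with both. The MYC peak of Rpl7a lay over the start of the promoter shown above, which holds TCTCGCGA and no E-box.

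Of 45 translation factors 5 had a MYC peak with RANKL and 0 with both compounds. The helicases Eif4a1 and Eif4a2 (ranks 45 and 50) and the scaffold protein gene Eif4g1 (171) belong to the complex that binds the mRNA cap. Eif1ad and Eef1e1 were the others. Among 26 aminoacyl-tRNA synthetases the lost genes were Ears2 (mitochondrial) and Yars. MAX peaks stood at 41 of 45 translation factors with RANKL and 32 with both compounds, and at 23 and 16 of 26 synthetases.

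In nucleotide, one-carbon and polyamine synthesis 5 of 37 genes had a MYC peak with RANKL and 0 with both compounds. These were Ctps, Mat2a (methionine adenosyltransferase), Odc1 (ornithine decarboxylase, rank 185), and the neighbouring nucleoside diphosphate kinase genes Nme1 and Nme2, each with a peak of its own. MAX was listed with both compounds at all 5, and over the list at 34 and then 25. Mitochondrial biogenesis genes had 7 of 41 with RANKL. Mrpl23 was listed with both compounds, and Hspd1 with Hspe1 (1 shared peak), Mtg1, Pprc1, Timm9, an import chaperone, and Twnk, a helicase of mitochondrial DNA, were lost with MAX listed again. In the glycolysis and pentose phosphate list 4 of 21 genes had a MYC peak. These were Hk2 (hexokinase, rank 106), Ldha (lactate dehydrogenase, 142), Pkm (pyruvate kinase, 276) and G6pc3. All 4 lost this peak, where 97% of all RANKL MYC peaks were lost. G6pc3, a glucose-6-phosphatase, is counted in the list but is an enzyme of neither pathway.

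Among 43 RNA processing genes 8 had a MYC peak with RANKL and 0 with both compounds. Prcc, Pcbp1 and Ptbp1 (rank 49) had the highest ranks, followed by the exonuclease Xrn2 (95), and Hnrnpf, Hnrnpu, Srsf6 and Snrpe completed the group. MAX was listed again at 7 of the 8, Snrpe being the exception. Of 31 chaperone genes 7 had a lost peak, with Sec61a1 of the translocon (76), Ppia (91), the chaperonin subunits Cct7 and Cct8, Dnajc2, Hspa8 and Npm1. Of 36 cell cycle genes 4 had a lost peak, Aurka (mitotic kinase, rank 26), Banf1 (29), Cenpp and E2f3 (a cell cycle transcription factor). The list of snoRNA hosts had 12 of 30 with RANKL and 4 with both compounds, and the lost ones include Eif4a1, Eif4a2, Hspa8, Nop56, Rack1, Rpl13a and Rpl7a. The lists overlap, and some members share 1 peak.

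Genes of the treatment and of the cell type were counted in the same way. None of 39 osteoclast genes, 41 NF-kB and inflammatory genes or 13 members of the MYC, MAX and MLX network had a MYC peak in either treatment. A MYC peak with RANKL was at 1.35% of all genes, so a count of 0 in lists of this size is near that share and is no result about their members. With MAX, osteoclast genes had 23 with RANKL and 14 with both compounds, and the NF-kB list had 22 and 13. Over all protein-coding genes the number with MAX also fell, from 7548 to 5139, so a fall is not particular to these lists. Of 40 macrophage identity genes 4 had a MYC peak with RANKL and 0 with both compounds (10% of the list, against 11.1% of the translation factors), namely Spi1 and Cebpa (myeloid transcription factors, ranks 234 and 252), Cx3cr1 (the fractalkine receptor, 102) and Tlr2 (a Toll-like receptor, 105). MAX was listed again at all 4, and over the list at 25 genes and then 18. Brd2, itself a target of the inhibitor, lost its MYC peak of rank 170, with MAX ranks 1801 and 2481. Of 42 lysosome genes 1 had a lost peak, Lipa (lysosomal acid lipase).

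**Figure D5:**
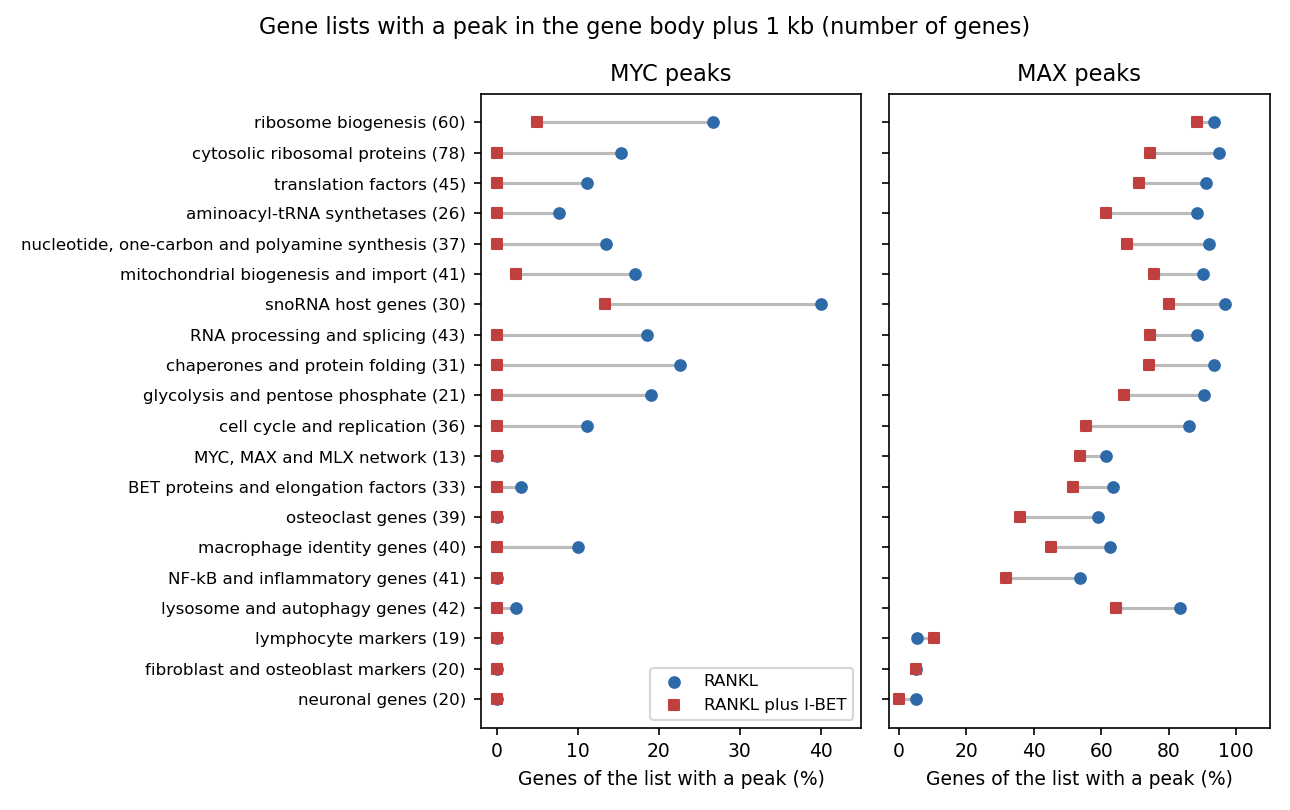
Share (%) of the genes of each list, with the number of genes in brackets, that had a MYC peak (left) or a MAX peak (right) in the gene body or within 1 kb of it. Circles are RANKL and squares RANKL plus I-BET. On the left every list but ribosome biogenesis, mitochondrial biogenesis and snoRNA hosts is at 0 with both compounds, against 0.0366% of all protein-coding genes. On the right ribosome biogenesis goes from 56 to 53 of 60 genes and osteoclast genes from 23 to 14 of 39. Over all protein-coding genes MAX goes from 34.5% to 23.5%.

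The E-box was more frequent in promoters at lost MYC peaks than in promoters at large. Windows from 250 bases before to 50 after a start, 300 bases long, were searched for CACGTG, which reads the same on both strands. It was present in 66 of 185 windows that overlapped a lost peak (35.7%, 28.8 to 43.0), which belong to 167 genes, against 7.15% of all 32851 windows. Windows with a MAX peak of RANKL-treated cells and no MYC peak had it in 15.7% of cases, and those with a MAX peak of rank 1 to 1000 and no MYC peak in 32.9% (29.3 to 36.6). The share at lost peaks was thus near that of high-ranked MAX peaks without MYC. It was 37.5% for MYC ranks 1 to 100, 38.7% for ranks 101 to 200 and 29.6% for ranks 201 to 299, with overlapping intervals. Of 5 windows at remaining peaks 2 had it (40%, 5.27 to 85.3), too few to set apart. The 79 matches at lost peaks had a median position of -79 from the start, and 65 of them lay before it. Of the 300 bases of a window 250 lie before the start, so these values show no preference for a side. Where MAX was listed with RANKL and not with both compounds, 8.66% of windows had CACGTG (7.57 to 9.84), against 7.15% of all windows (6.87 to 7.43). These windows were not matched by MAX rank. Of MAX peaks without MYC, 1 of 353 in ranks 1 to 500 was not listed again, and 3045 of 3886 in ranks 7001 to 10889. The part of rank in the 8.66% was not tested.

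CACGCG, searched on both strands, where a match on one can overlap a match on the other, was in 45.4% of windows at lost peaks (38.1 to 52.9). It was in 9.27% of all windows, in 25.3% of those with MAX and no MYC peak and in 31.9% of those with MAX of rank 1 to 1000 and no MYC peak (28.4 to 35.7). The windows at lost peaks are 185 for 167 genes, and those of alternative or neighbouring starts can overlap and count a match more than once, so the intervals are too narrow. The windows were not matched for base composition, and its part was not tested. Of the 8 promoter sequences as printed above, Gtf2ird2 carries CACGCG once and Snhg15 carries it on each strand, both at places that remained. The windows counted here reach further past the start than the printed sequences. In its window the lost promoter G6pc3 also carries CACGCG, with 1 match. The other remaining promoter shown, Nop58, has none, and 84 of the 185 windows at lost peaks carry it, so these 8 do not set the groups apart.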

How the data were processed

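Deposited ChIP-seq peaks of MYC and MAX were analysed, with 1 library per antibody and treatment grouped by the labels. The submitters' processing notes name the aligner Bowtie2 2.3.4.1, the caller MACS2 2.1.1.20160309, FastQC and the builds mm10 and GRCm38. For thresholds, input use and duplicates, the sources used here give nothing. The deposited score is the authors' own value per peak and served only to rank peaks within a list. Input libraries were not analysed here, and read depth is unknown.

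Starts were raised by 1 on the assumption of BED positions. Peaks were matched by at least 1 bp and assigned to genes (body plus 1 kb) of the RefSeq table for GRCm38.p6. Promoter windows came from RefSeq (32851 windows, without chromosome 18, where 5 lost peaks lie). All 717 entries of 20 gene lists matched the table. Shares carry exact Clopper-Pearson 95% intervals. Named genes are those of all 11 peaks with both compounds, of the 20 top-ranked lost peaks with a gene, of lost peaks by MAX status and of list members with a lost peak; high-MAX-rank genes, Tex14, Brd2's MAX ranks and the genes kept with I-BET alone were chosen after their values were seen. Members and lists were chosen with earlier results of these data known. Alternatives varied overlap, score, width, list length and gene window. Python 3.11.15, numpy 2.4.6, pandas 2.3.3, scipy 1.17.1, matplotlib 3.10.9 and bedtools 2.31.1 were used, and overlap counting was tested on simulated data. Some named members are not reported here.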

Additional observations from a re-analysis of the deposited data

Results flagged for a closer look

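The width of MAX peaks at lost MYC places moved in opposite directions under the inhibitor with and without RANKL. At the 258 lost places with a MAX peak in all 4 treatments, the MAX peak with RANKL plus I-BET had a median of 0.809 times the width of that with RANKL (809.5 and 608.5 bp as medians), and was narrower at 229 and wider at 29. With I-BET alone it had a median of 1.82 times the untreated width (663 and 1304 bp), wider at 247 places and narrower at 11. The MAX list with I-BET alone holds 36785 peaks, against 8839 without treatment, and the part of this in the ratio was not tested. At the 9 remaining places the ratios were 0.734 and 1.47. The first ratio was 0.798 over all 5579 MAX peaks of RANKL-treated cells that were listed again. The second was not computed over all MAX peaks, so whether the widening is particular to lost MYC places was not tested. The places share their libraries, each treatment has 1 library, and the difference was not tested.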

How the results depend on the processing

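Of 36 recomputed values 28 stayed close to the reported ones, a share inside the reported 95% interval or a count within 1.5 times, and 8 moved. With reciprocal overlap of 50% of both peaks, 0.334% of RANKL MYC peaks (1 of 299) were listed again and 9.09% of the RANKL plus I-BET peaks (1 of 11) had a counterpart. MAX with RANKL was then at 26.8% and MAX with both compounds at 48.0% of the 298 lost peaks, and 91.3% of the MAX peaks there (73 of 80) were listed again. MAX peaks are wider than MYC peaks, and MYC peaks with both compounds are narrower than with RANKL, which lowers reciprocal overlap by construction. Among the 11 top-ranked RANKL MYC peaks 4 were listed again (36.4%). In the higher-scoring part of the MYC RANKL list, 149 peaks, 5.37% (8) were listed again against 3.01% in the whole list, and 134 genes had a lost peak, 4 of them of ribosome biogenesis against 14 in the whole list, since fewer peaks enter. Distances up to 500 bp, leaving out peaks under 100 bp, equal numbers of MAX peaks and the other gene windows (224 to 349 genes) left the values close, as did MYC peak centres and genes of any biotype (364), which were added after seeing the data. No paired analysis was possible because the labels give 1 library per antibody and treatment and no replicate numbers. Depth, which limits what a missing peak means, is unknown.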

Other observations

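Small RNA genes other than hosts of snoRNAs lay near some lost peaks. Within 1 kb of a lost peak there were snoRNA genes at 8 of 290 peaks (2.76%, 1.2 to 5.36), against 0.496% of all MAX peaks of RANKL-treated cells, among them Snora21, Snora7a, Snord55 and the pair Snord49a and Snord49b. Genes annotated as snRNA were at 6 (2.07%, 0.763 to 4.45) against 0.441%, and these include Rnu3b1, Rnu3b3 and Rnu3b4, copies of the U3 RNA that processes pre-rRNA, at the 3 lost peaks in Tex14. Copies of a small RNA gene are near-identical, and reads cannot always be assigned to one of them. Genes of tRNA were at 2 lost peaks, n-TLaag4 in the Polr3e promoter printed above and n-TYgta7 (0.690% against 0.707%), and the miRNA gene Mirlet7i was at 1.

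Other sequence motifs were counted in the promoter windows after the sequences had been seen, so the counts only describe them. The motif ACTACA followed after 2 bases by TCCC, searched on both strands, was in 16 of 185 windows at lost MYC peaks (8.65%, 5.02 to 13.7), in 1.81% of all windows, and in 4.70% of those with a MAX peak and no MYC peak. Nudt13, Prcc, Wbp2, Nop14, Pa2g4 and Xpot are among the 14 genes with it. TCTCGCGA, which reads the same on both strands, was in 14 of 185 (7.57%, 4.20 to 12.4), in 0.995% of all windows and in 3.22% of those with MAX and no MYC peak. Ribosomal protein genes are among its 13 lost genes (Rpl10a, Rpl7a, Rps15a, Rps19 and Rps3a1), as is Cct8, and Nop58 carries it at a remaining peak. In the 59 windows at lost peaks with neither CACGTG nor CACGCG, TCTCGCGA was in 13 (22.0%, 12.3 to 34.7) and the ACTACA motif in 9 (15.3%, 7.22 to 27.0). TGACGTCA was in 4.86% of windows at lost peaks, 3.72% of those with MAX and no MYC peak and 1.79% of all. GGAAGT on either strand was in 34.1%, 31.1% and 23.8%. CATGTG on either strand was in 9.19%, 8.02% and 14.2%, and any CANNTG in 65.4%, 60.8% and 72.3%.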
